A study of Mus musculus with 12 samples.

Results

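The samples described here were mouse brainstem progenitor cells that carried wild-type *ACVR1* with or without the histone mutation H3.1K27M. All 6 samples with wild-type *ACVR1* were taken by their labels, out of 12 in the series: 3 labelled ACVR1 WT and 3 labelled ACVR1 WT with H3.1K27M. The cells of every sample came from Nestin TVA; p53 floxed pups on a C57BL/6 background, isolated from the brainstem at postnatal day 3 to 5. They were grown without serum in the presence of EGF and FGF2. The ACVR1 WT samples were infected with an RCAS vector for human wild-type *ACVR1*, and the H3.1K27M samples received that vector together with one for H3.1K27M. RCAS is an avian retroviral vector that enters only cells bearing its receptor TVA, here placed under the nestin promoter, so infection was limited to nestin-expressing cells. No sample carried wild-type H3.1 on a vector, so the mutation and the presence of an additional vector cannot be told apart. No Cre is named in the labels, and deletion of the floxed p53 allele is therefore not stated for either group. The other 6 samples carried *ACVR1* R206H with or without H3.1K27M and are used below only to repeat the comparison in different libraries.

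H3.1K27M replaces lysine 27 of a histone H3 variant by methionine. It is a recurrent mutation of diffuse intrinsic pontine glioma, a childhood tumour of the brainstem, where it often occurs together with activating mutations of *ACVR1*, a type I receptor for BMP ligands. Polycomb repressive complex 2 (PRC2) trimethylates lysine 27 of H3 at developmental genes that are kept silent, and K27M histone is known to inhibit this complex and to lower the mark over much of the genome.

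RNA was sequenced and read pairs were counted per gene, giving 19542127 to 21397108 counts per ACVR1 WT sample and 20952918 to 24869341 per H3.1K27M sample. Values are given as CPM, the counts of a gene scaled to a common library size. The ACVR1 WT samples were the most variable of the 4 groups. The highest and lowest of their 3 log2 CPM values lay a median of 0.408 apart over genes, against 0.162 in the H3.1K27M samples. Replicate 1 stood apart from replicates 2 and 3. Summed over 29 mitosis genes, the 3 ACVR1 WT samples held 4030, 1150 and 438 CPM, while the H3.1K27M samples held 2160 to 2240 CPM. The 15 astrocyte genes went the other way, at 8630, 20000 and 27200 CPM in ACVR1 WT replicates 1, 2 and 3, against 11600 to 12700 CPM with H3.1K27M. The labels do not say whether replicates were separate litters or cultures, so p-values measure the spread between these samples, which may be technical. The stated background is the same for both groups. Whether the H3.1K27M cells also came from another culture or from other animals is not given, and these cannot be told apart from H3.1K27M. In bulk RNA, fewer cells of a type and less RNA per cell cannot be told apart either.

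**Figure D1:**
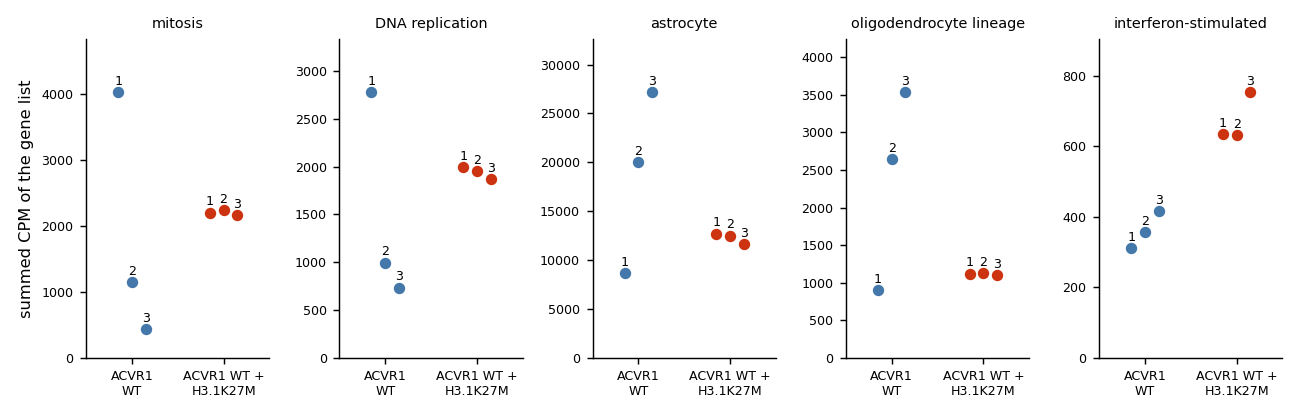
Summed CPM of 5 gene lists in each ACVR1 WT sample (blue) and each ACVR1 WT + H3.1K27M sample (red), with replicate numbers above the points; each vertical axis starts at 0. The 3 ACVR1 WT samples spread from 438 to 4030 CPM for mitosis genes and span the H3.1K27M samples in the first 4 panels, while for interferon-stimulated genes all H3.1K27M samples (632 to 754 CPM) lie above all ACVR1 WT samples (311 to 415 CPM).

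The cells were checked against their label with 21 neural progenitor genes. All 21 passed the filter on low values, and their sum was 8680 to 11300 CPM in the ACVR1 WT samples and 11100 to 12100 CPM with H3.1K27M. *Sox2*, a transcription factor of neural stem cells, was at 326, 374 and 363 CPM in the ACVR1 WT samples and at 247, 227 and 213 CPM with H3.1K27M. *Nes*, which encodes the nestin filament, was at 404, 131 and 72.5 CPM and at 321, 326 and 338 CPM, with the H3.1K27M samples inside the range of the others. The vectors were checked next. *Hist1h3a*, which encodes an H3.1 protein, had 3 counts over the ACVR1 WT samples and 1284 over the H3.1K27M samples, a ratio of 374 (95% exact interval 128 to 1820, counting error only). Its level was 26.6, 16.2 and 12.2 CPM in the H3.1K27M samples. The H3.1 genes *Hist1h3b* and *Hist1h3i* were also higher in every H3.1K27M sample, at 8.55, 5.92 and 5.64 CPM and at 5.64, 4.63 and 3.56 CPM. The H3.1 genes are near-identical copies, so the share of each is uncertain, and reads from a vector cannot be separated from those of the mouse genes. *Acvr1* was at 53.1, 46.1 and 52.3 CPM in the ACVR1 WT samples and at 172, 163 and 368 CPM with H3.1K27M, although both groups carried the human *ACVR1* vector. The groups did not overlap, and replicate 3 was the highest of the H3.1K27M samples (log2 fold change 2.2 ± 0.33 SE, edgeR's quasi-likelihood test, Benjamini-Hochberg adjusted p = 0.00745).

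Across the transcriptome, 3533 of 15385 genes tested differed between the 3 ACVR1 WT + H3.1K27M and the 3 ACVR1 WT samples at an adjusted p below 0.05 (23.0%). Of these, 1939 were higher with H3.1K27M (12.6%) and 1594 were lower (10.4%). The differences were then set against the spread of the controls. A difference was taken as larger than that spread where the groups did not overlap and where the difference of their mean log2 CPM exceeded the range of the 3 ACVR1 WT samples. Among the genes called, 3335 met this rule (21.7% of genes tested), 1911 of them higher (12.4%) and 1424 lower (9.26%). The remaining 198 called genes lay within the range, and 170 of these were lower with H3.1K27M. Genes higher and beyond the range had a median log2 fold change of 0.95, and 101 of them reached 3. Genes lower and beyond it had a median of -0.59, and 64 of them reached -3. A further 1776 genes exceeded the range without passing the test. The groups did not overlap for 6859 genes in all (44.6%). Genes were tested where the 6 samples averaged at least 10 counts. For 690 of the genes tested (4.48%) 1 group averaged under 10 counts, so these passed that filter only through the group where they were high and had to differ. Their values, given below for genes said to be low in 1 group, are a description.

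**Figure D2:**
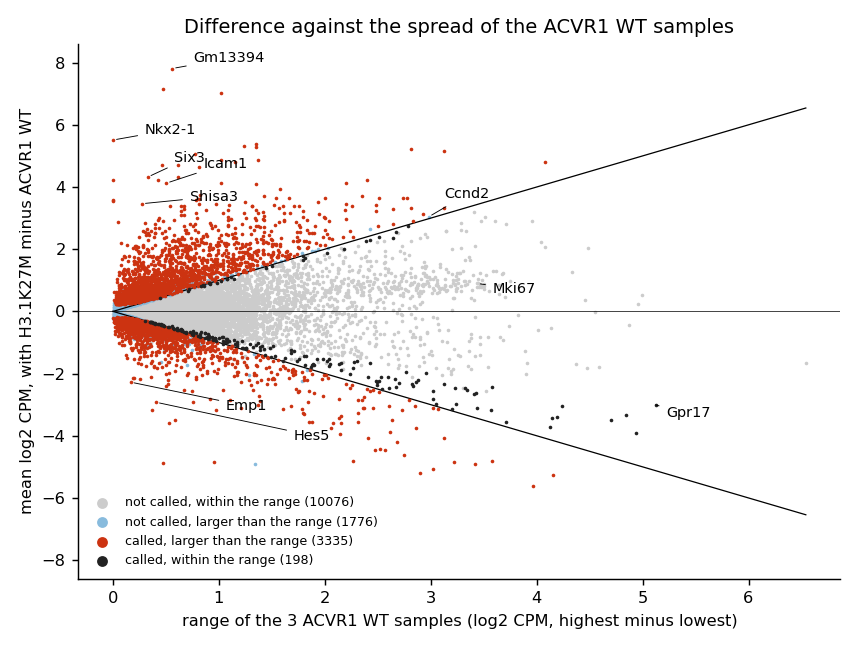
Difference of mean log2 CPM between ACVR1 WT + H3.1K27M and ACVR1 WT samples (vertical) against the range of the 3 ACVR1 WT samples (horizontal) for each of 15385 genes; the black lines mark a difference as large as the range, and numbers of genes are in brackets. *Six3*, *Icam1* and *Shisa3* lie far outside the lines at small ranges, while *Gpr17* passes the test inside them and *Mki67* does not pass it.

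The 3 genes *Six3*, *Icam1* and *Shisa3* marked the comparison, with little spread in either group. *Six3* (chromosome 17, 85613608 to 85629302, plus strand, GRCm38), a homeobox gene of the developing forebrain and eye, was at 0.282, 0.206 and 0.243 CPM in the ACVR1 WT samples and at 6.97, 6.26 and 6.52 CPM with H3.1K27M. Its log2 fold change was 4.71 ± 0.20 (SE), and as it averaged 5 counts in the ACVR1 WT samples it was low in that group and is described without a test. *Icam1* (chromosome 9, 21015985 to 21028817, plus strand), an adhesion molecule for leukocytes, was at 3.34, 2.48 and 2.33 CPM against 47.5, 45.4 and 52.0 CPM (log2 fold change 4.14 ± 0.16 SE, edgeR's quasi-likelihood test, Benjamini-Hochberg adjusted p = 0.000201). *Shisa3* (chromosome 5, 67607882 to 67623552, plus strand), whose protein restrains Wnt and FGF receptors, was at 14.2, 11.9 and 14.4 CPM against 154, 147 and 147 CPM (3.46 ± 0.10, adjusted p = 5.29e-05). For each of the 3 genes every H3.1K27M sample lay above every ACVR1 WT sample by far more than the samples of a group differed. Strand was not used in counting, and *Six3* overlaps the antisense gene *Six3os1* by 4791 bases. Reads that could belong to both were left out, so the counts of *Six3* are uncertain. *Six3os1* was itself at 0.0941, 0.103 and 0.0485 CPM in the ACVR1 WT samples and at 22.7, 25.2 and 25.3 CPM with H3.1K27M. *Shisa3* overlaps *Atp8a1* on the other strand by 5413 bases, and for *Atp8a1* the log2 fold change was -0.32.

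The 250 bases before the RefSeq start of *Six3* are shown because silent developmental genes in CG-rich sequence are typical sites of PRC2, with each CG dinucleotide in capitals. The sequence is chr17:85620584-85620833 on the plus strand of GRCm38.p6 and holds 10 of them. It lies before a start given by RefSeq, which is inside the wider span of the gene given above.
Six3: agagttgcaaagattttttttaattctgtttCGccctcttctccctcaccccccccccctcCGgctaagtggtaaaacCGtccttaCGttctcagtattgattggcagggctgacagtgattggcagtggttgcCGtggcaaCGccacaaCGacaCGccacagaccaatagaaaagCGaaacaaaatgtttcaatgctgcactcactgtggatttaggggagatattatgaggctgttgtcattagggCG
Over 27025 RefSeq promoters of the same length the median was 6 CG dinucleotides, and over the 11212 tested genes that matched a promoter by symbol it was 16. It was 13 for the 1426 higher genes with a promoter, 16 for the 1193 lower genes, and 5 for the 67 higher genes with a log2 fold change of at least 3. Fewer than 80% of the tested genes matched, so these medians describe the matched genes only.

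Genes that pattern the brain along its length were examined first. Of 12 forebrain transcription factors listed, 6 passed the filter on low values, and these 6 rose with H3.1K27M, where 12.6% of all genes did. *Six3* and *Nkx2-1* were low in the ACVR1 WT samples and had to differ, and the number is given as a description. *Nkx2-1*, which specifies ventral forebrain and hypothalamus, had no count in any ACVR1 WT sample and was at 4.52, 3.96 and 3.80 CPM with H3.1K27M, at least 83.7-fold higher against a floor of 3 counts over the control group. *Nkx2-4*, a close relative of it outside that list, was likewise at 0 and at 1.70, 1.29 and 1.92 CPM (at least 33.8-fold higher). *Otx1* and *Otx2*, homeobox genes of forebrain and midbrain, were at 1.88, 1.6 and 1.5 CPM against 10.7, 9.03 and 10.8 CPM and at 5.88, 3.1 and 5.15 CPM against 20.1, 18.9 and 19.8 CPM. Their log2 fold changes were 2.59 ± 0.16 (adjusted p = 0.000842) and 2.04 ± 0.23 (adjusted p = 0.0034). *Lhx2* (1.98) and *Emx2* (1.64), which shape the cerebral cortex, completed the group.

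Hindbrain genes moved the opposite way. Of 39 Hox genes listed, 9 passed the filter on low values, and these 9 fell, with log2 fold changes around a median of -2.01 (-0.02 over all genes tested). For 2 of the 9, *Hoxa7* among them, the H3.1K27M samples averaged under 10 counts, so these passed the filter only through the controls. *Hoxa7*, a gene of the spinal cord in later development, was at 0.847, 1.08 and 0.825 CPM in the ACVR1 WT samples and at 0.166, 0.143 and 0.12 CPM with H3.1K27M (log2 fold change -2.65 ± 0.30). *Hoxb4*, a marker of the caudal hindbrain, was at 2.02, 2.94 and 2.77 CPM against 0.456, 0.621 and 0.400 CPM (-2.39 ± 0.27, adjusted p = 0.00312). The groups did not overlap for the 9 genes, as for 44.6% of all genes tested. *Hoxa2* (-2.01) and *Hoxa3* (-1.72) belonged to the same cluster as *Hoxa7*, and antisense transcripts of the cluster (*Hoxaas2*, *Hoxaas3*) overlap several of its genes and fell as well. Of 10 tested hindbrain transcription factors, 7 fell (10.4% of all genes) and none rose, and 2 of the 10 were low with H3.1K27M. *Lmx1a*, of the roof plate and midbrain and not on the hindbrain list, which averaged 5 counts with H3.1K27M, went from 1.41, 6.24 and 5.10 CPM to 0.207, 0.239 and 0.200 CPM, with replicate 1 the lowest control. Levels of the Hox genes were low throughout, and the summed Hox level was 27.2 to 34.6 CPM against 8.36 to 9.13 CPM. Over the wider list of 93 developmental transcription factors, 30 were tested, of which 10 rose (33.3%) and 9 fell (30.0%). Over all genes these shares were 12.6% and 10.4%. Of the 30, 10 averaged under 10 counts in the lower group.

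**Figure D3:**
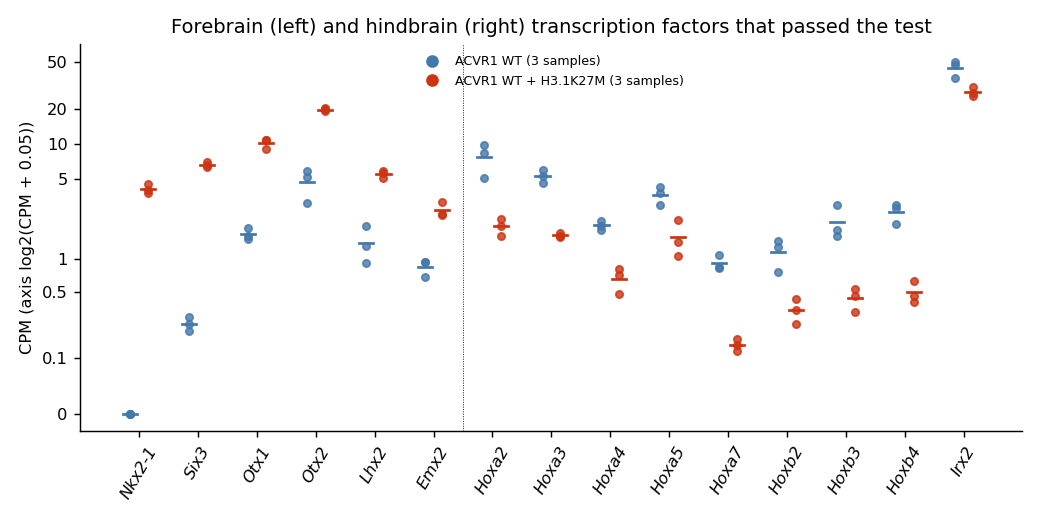
CPM of the forebrain (left of the dotted line) and hindbrain and Hox (right) transcription factors reported here that passed the test, on an axis of log2(CPM + 0.05); points are samples and bars are group means. Every forebrain gene shown is higher in all 3 H3.1K27M samples (red) than in all 3 ACVR1 WT samples (blue). Every hindbrain gene shown is lower in the same comparison. Only genes that passed are shown, so a difference was required, and hindbrain factors that were not called are left out. Genes averaging under 10 counts in the lower group, *Six3* and *Hoxa7* among them, had to differ, and their points are a description.

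Antiviral and antigen presentation genes rose together. Of 32 tested interferon-stimulated genes, 21 rose and none fell (65.6% against 12.6% of all genes), with a median log2 fold change of 0.98. *Ifit1*, which blocks translation of viral RNA, was at 1.98, 2.01 and 3.2 CPM in the ACVR1 WT samples and at 19.1, 19.1 and 23.9 CPM with H3.1K27M (log2 fold change 3.09 ± 0.23, adjusted p = 0.00119). *Isg15*, a ubiquitin-like modifier, was at 1.51, 2.17 and 1.84 CPM against 8.34, 9.79 and 12.1 CPM (2.44 ± 0.22, adjusted p = 0.00174). *Oasl1*, an antiviral protein of the oligoadenylate synthetase family, had 1 count in the controls, a ratio of 168 (interval 29.8 to 6670). In the MHC class I and antigen processing list, 13 of 19 genes rose (68.4%) and none fell, with a median of 1.15, and 2 of the 19 were low in the controls. *B2m*, the invariant light chain of class I molecules, was at 163, 181 and 210 CPM against 424, 396 and 419 CPM (1.15 ± 0.11, adjusted p = 0.00194). The class I heavy chain gene *H2-K1* was at 26.3, 29.9 and 42.8 CPM against 133, 130 and 135 CPM. *H2-D1* (2.08) rose too, and *H2-Q6*, low in the controls, had a log2 fold change of 3.44, but heavy chain genes share much sequence and the division of reads among them is uncertain. *Nlrc5*, which activates transcription of class I genes, was at 4.99, 4.28 and 5.10 CPM against 22, 25.3 and 29.6 CPM (2.40 ± 0.15, adjusted p = 0.000929), and *Psmb8*, an immunoproteasome subunit, rose by 2.04. The groups did not overlap for these genes, as for 44.6% of all genes tested. *Oasl1* and *H2-Q6*, low in the controls, had to differ.

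Chemokines and adhesion genes gave a like picture with fewer members. Of 23 tested genes of the NF-kB, chemokine and adhesion list, of 32 listed, 10 rose (43.5% against 12.6% of all genes) and none fell, and 2 of the 23 were low in the controls. *Cxcl10*, a chemokine for T cells, was at 0.800, 0.258 and 0.680 CPM in the ACVR1 WT samples and at 23.1, 20.8 and 28.9 CPM with H3.1K27M (log2 fold change 5.35 ± 0.35, adjusted p = 0.000943). *Cxcl5*, which attracts neutrophils, was at 0.612, 0.516 and 0.728 CPM against 6.47, 5.01 and 5.40 CPM (3.16 ± 0.21, adjusted p = 0.00096). *Cxcl1* had 2 counts over the controls, a ratio of 32.8 (interval 8.77 to 276). The groups did not overlap for *Cxcl10* and *Cxcl5*, as for 44.6% of all genes tested. *Cxcl1* was low in the controls, passed the filter only through the H3.1K27M samples and had to differ. *Art3* overlaps *Cxcl10* on the other strand and had a log2 fold change of 2.93. Reads that could belong to both were left out, so the counts of both are uncertain. *Birc3* (1.70), an inhibitor of apoptosis, and *Nfkb2* (0.59), an NF-kB subunit, also rose, and *Ccl2*, low in the controls, had a log2 fold change of 2.37.

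The promoters of 3 of these genes and of *Hes5* (below) are shown because they hold motifs of factors that act on their families. Capitals mark GGNNNTTCC on either strand in *Icam1* (the shared core of NF-kB sites), GAAANNGAAA on either strand in *Ifit1* and *Isg15* (interferon response elements), and TGGGAA on either strand in *Hes5* (the site of RBPJ, the DNA-binding partner of Notch). The 3 matches in *Isg15* overlap one another. Each sequence is the 250 bases before the RefSeq start in GRCm38.p6: chr9:21015690-21015939 plus strand for *Icam1*, chr19:34640639-34640888 plus strand for *Ifit1*, chr4:156200819-156201068 minus strand for *Isg15*, and chr4:154960673-154960922 plus strand for *Hes5*.
Icam1: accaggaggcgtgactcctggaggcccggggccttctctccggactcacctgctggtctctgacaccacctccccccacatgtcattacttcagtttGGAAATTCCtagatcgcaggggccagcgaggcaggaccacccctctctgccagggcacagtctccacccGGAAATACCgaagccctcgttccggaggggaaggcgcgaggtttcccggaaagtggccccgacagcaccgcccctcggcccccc
Ifit1: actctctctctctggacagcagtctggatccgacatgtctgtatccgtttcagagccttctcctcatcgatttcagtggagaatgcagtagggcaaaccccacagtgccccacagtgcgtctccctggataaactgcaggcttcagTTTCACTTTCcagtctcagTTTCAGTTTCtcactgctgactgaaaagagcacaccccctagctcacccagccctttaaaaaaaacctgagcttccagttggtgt
Isg15: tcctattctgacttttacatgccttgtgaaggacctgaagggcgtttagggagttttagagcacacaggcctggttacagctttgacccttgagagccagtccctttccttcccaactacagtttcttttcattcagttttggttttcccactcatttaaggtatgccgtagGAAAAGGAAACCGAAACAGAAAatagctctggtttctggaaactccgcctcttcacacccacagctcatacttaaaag
Hes5: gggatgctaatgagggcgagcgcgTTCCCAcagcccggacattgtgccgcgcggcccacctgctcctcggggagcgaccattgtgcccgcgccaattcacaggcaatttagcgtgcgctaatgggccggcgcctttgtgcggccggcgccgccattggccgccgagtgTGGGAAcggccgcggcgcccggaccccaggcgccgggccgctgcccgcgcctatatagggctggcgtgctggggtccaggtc
The matches began 153 and 84 bases before the start in *Icam1*, 104 and 85 in *Ifit1*, 78, 72 and 66 in *Isg15*, and 226 and 82 in *Hes5*. GAAANNGAAA was held by 3.04% of all promoters, by 13 of the 24 tested interferon-stimulated genes that matched a promoter (54.2%), and by 9 of the 16 of them that rose (56.2%). GGNNNTTCC was held by 15.6% of all promoters, by 11 of 17 tested genes of the NF-kB list (64.7%) and by 5 of the 7 that rose. TGGGAA was held by 21.5% of all promoters, by 4 of 15 tested Notch genes (26.7%) and by 3 of the 5 that fell. Among all higher genes GGNNNTTCC was as frequent as among all genes tested (17.6% and 17.9%). A match describes the sequence and is not a measured site.

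Targets of p53, which is floxed in all these animals, were higher with H3.1K27M. Of 20 tested p53 targets, 14 rose (70.0% against 12.6% of all genes) and 1 fell, with a median log2 fold change of 1.17, and 1 of the 20, *Gdf15*, was low in the controls. *Gdf15*, a secreted stress cytokine, was at 0.612, 0.206 and 0.340 CPM in the ACVR1 WT samples and at 21.2, 15.4 and 17.4 CPM with H3.1K27M (log2 fold change 5.5 ± 0.33), averaging 8 counts in the controls. *Cdkn1a*, the inhibitor p21 of the cell cycle, was at 290, 113 and 119 CPM against 577, 536 and 552 CPM (1.66 ± 0.38, adjusted p = 0.0248). *Mdm2*, which degrades p53, was at 101, 70.8 and 70.1 CPM against 175, 162 and 197 CPM (1.13 ± 0.16, adjusted p = 0.0065). For *Cdkn1a* and *Mdm2*, ACVR1 WT replicate 1 was the highest control and still lay below all H3.1K27M samples. *Pmaip1* (2.27) and *Perp* (2.79), both effectors of cell death, rose as well, and *Sesn1* (-0.92), a sestrin, fell. *Trp53* itself was not called (-0.03). The inhibitor p27, encoded by *Cdkn1b*, was at 123, 131 and 120 CPM and fell to 81.8, 81.8 and 80.5 CPM (-0.63 ± 0.06, adjusted p = 0.00213). In the list of 10 CDK inhibitors and D cyclins, *Cdkn1a* and *Ccnd3* rose and *Cdkn1b* fell. In the 9 tested stress response genes, 4 rose (44.4%) and none fell, among them *Chac1* (2.14) and *Trib3* (2.36) of the amino acid response and *Hmox1* (1.53), heme oxygenase.

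Genes of the machinery that writes and reads H3K27 methylation were examined next. Of 15 tested genes of PRC2 and the H3K27 demethylases, 4 fell (26.7% against 10.4% of all genes) and none rose, with a median of -0.11. *Jarid2*, a PRC2 accessory subunit, was at 79.0, 89.6 and 81.6 CPM in the ACVR1 WT samples and at 55.3, 55.8 and 50.2 CPM with H3.1K27M (log2 fold change -0.65 ± 0.08, adjusted p = 0.00415). *Ezh1*, the alternative catalytic subunit, fell by 0.76 on the log2 scale, and the demethylase *Kdm6a* fell by 0.34. *Ezh2*, the main catalytic subunit, was at 132, 75.2 and 59.9 CPM against 80.8, 80.7 and 77.4 CPM and did not pass the test (-0.17 ± 0.28, adjusted p = 0.691), with the H3.1K27M samples inside the control range. Among 16 PRC1 genes, 3 fell (18.8%) and 1 rose (6.25% against 12.6% of all genes), numbers near those over all genes. *Bmi1*, a core PRC1 subunit, was at 174, 189 and 171 CPM against 118, 112 and 117 CPM (-0.63 ± 0.06, adjusted p = 0.00241), and its relative *Pcgf2* fell by 1.07. Of 7 DNA methylation genes, only the methyltransferase *Dnmt3a* rose (0.61), a share of 14.3% against 12.6% of all genes, and none fell. Of 7 tested H3 histone genes, 5 rose (71.4% against 12.6% of all genes) and none fell. However, 3 of the 7 averaged under 10 counts in the controls and so passed the filter only through the H3.1K27M samples.

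Signalling genes showed mixed directions. In the Notch list, 3 of 18 rose (16.7% against 12.6% of all genes) and 5 fell (27.8% against 10.4%). *Hes5*, the Notch effector that keeps progenitors undifferentiated, was at 64.7, 85.8 and 65.5 CPM in the ACVR1 WT samples and at 11.5, 10.7 and 6.56 CPM with H3.1K27M (log2 fold change -2.92 ± 0.24, adjusted p = 0.00156). *Hey2* (-2.22), a related effector, and the ligands *Dll3* (-1.63) and *Dll1* (-0.72) also fell. *Notch3* was at 188, 210 and 188 CPM against 243, 254 and 242 CPM, a small rise of 0.32. In the BMP list, 2 of 27 rose (7.41%) and 5 fell (18.5%). *Id3*, a transcriptional inhibitor induced by BMP receptors, was at 71.4, 88.7 and 122 CPM against 43.8, 46.4 and 39.1 CPM (-1.14 ± 0.20, adjusted p = 0.0113). *Id2* was at 156, 190 and 242 CPM against 129, 122 and 130 CPM (-0.64 ± 0.16, adjusted p = 0.0312), a difference within the range of the controls. *Id1* was at 12.5, 11.9 and 21.8 CPM against 13.8, 12.5 and 14 CPM and did not pass the test (-0.21 ± 0.25, adjusted p = 0.581). The receptor *Bmpr1b* (-1.2) and the effectors *Smad1* (-0.51) and *Smad4* (-0.32) fell, while the antagonist *Fst* (1.41) and *Acvr1* rose. Reads of *Acvr1* cannot be separated from those of the *ACVR1* vector, which both groups carried. In the IL-6/JAK/STAT3 list, 2 of 19 rose (10.5%) and 3 fell (15.8%), shares near those over all genes. The cytokine *Lif* (2.42) and the receptor *Cntfr* (0.84) were higher, and the kinase *Jak2* (-0.75) and the feedback inhibitor *Socs2* (-0.67) were lower.

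The growth factor pathways split in the same manner. Among 15 tested receptor tyrosine kinases, 4 rose and 4 fell (26.7% each, against 12.6% and 10.4% of all genes). *Erbb2* (0.95), *Fgfr1* (0.71) and *Fgfr2* (0.81) were higher, and *Kit* (-2.10), *Erbb4* (-1.33), *Erbb3* (-1.22) and *Fgfr3* (-1.02) were lower. Among 23 immediate early and ERK feedback genes, 5 rose (21.7%) and 3 fell. The feedback inhibitor *Spry1* was at 64.8, 18.1 and 8.45 CPM in the ACVR1 WT samples and at 208, 179 and 182 CPM with H3.1K27M (log2 fold change 2.62 ± 0.70, adjusted p = 0.04). *Spry4* was at 41.5, 12.9 and 5.92 CPM against 97.5, 94.8 and 105 CPM (2.29, adjusted p = 0.0486), and its difference stayed within the control range. In both genes ACVR1 WT replicate 1 was several times the other controls, the order also seen for mitosis genes. Without that replicate the log2 fold changes were 3.83 for *Spry1* (adjusted p = 1.26e-05) and 3.39 for *Spry4* (adjusted p = 1.89e-05) by edgeR, more than 1.5 times larger on the linear scale. The immediate early genes *Fosb* (-1.63), *Fos* (-1.09) and *Egr1* (-0.92) fell, and the difference of *Egr1* stayed within the range of the controls.

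Genes of other cell types were examined for cells that a brainstem culture can hold. Part of the microglial genes were nearly absent with H3.1K27M. Of 14 microglia and macrophage markers, 11 were tested, 8 fell and none rose, where 10.4% of all genes fell. The 8 that fell averaged under 10 counts with H3.1K27M, so they passed the filter only through the controls and had to differ, and the number is given as a description. *C1qa*, a complement component of microglia, was at 1.08, 5.11 and 8.69 CPM in the ACVR1 WT samples, with 1 count over all H3.1K27M samples, 344 times lower (interval 61.3 to 13600). *Trem2*, a microglial receptor, had no count with H3.1K27M and was at least 37.4-fold lower. The sum of the list was 46.1 to 98.1 CPM against 35.9 to 38.5 CPM. *Cd68*, a lysosomal protein that other cells express too, did not pass the test (-0.88, adjusted p = 0.137). *Fcrls*, *Ctss*, *Cd5l* and *Lyz2*, also genes of microglia and macrophages, were among the largest falls of all (-6.30, -5.56, -5.56 and -5.09). In each of them ACVR1 WT replicate 3 was the highest control and replicate 1 the lowest. Without replicate 3 their log2 fold changes were -5.34, -4.89, -4.94 and -4.50, and 5 markers of the list passed rather than 8. As microglial genes fell, interferon-stimulated and MHC class I genes, which microglia also express, rose, and the part of microglia in other falls was not tested.

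Glial lineage genes lay mostly within the spread of the controls. *Gfap*, the astrocyte filament, was at 343, 1410 and 2660 CPM in the ACVR1 WT samples and at 284, 270 and 267 CPM with H3.1K27M (log2 fold change -2.44 ± 0.66, adjusted p = 0.0431). *Gpr17*, a receptor of oligodendrocyte precursors, was at 36.2, 718 and 1260 CPM against 40.1, 45.8 and 34.1 CPM (-4.08 ± 1.12, adjusted p = 0.0439). Both passed the test, but ACVR1 WT replicate 1 was close to or among the H3.1K27M samples, and both differences were smaller than the control range. *Gpr17* overlaps *Lims2* (-2.40) on the other strand by 6640 bases, and strand was not used in counting. Of 15 astrocyte genes, 4 fell (26.7% against 10.4% of all genes) and 1 rose, with a median of -0.83. *Fgfr3* (-1.02) and *Aldoc* (-0.96) fell beyond the control range, and *Acsbg1*, a glial acyl-CoA synthetase, rose from 536, 327 and 275 CPM to 1070, 1040 and 1010 CPM. Of 17 oligodendrocyte lineage genes, 3 fell (17.6%) and 1 rose. Without ACVR1 WT replicate 1, 10 astrocyte and 11 oligodendrocyte genes fell, where 25.6% of all genes did. Without ACVR1 WT replicate 3, 2 astrocyte genes fell and 1 rose, and 1 oligodendrocyte gene fell and 3 rose, where 7.09% of all genes fell and 10.7% rose.

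Neuronal and progenitor genes moved in both directions. Of 16 neuronal genes, 3 rose (18.8% against 12.6% of all genes) and 2 fell (12.5% against 10.4%). *Gap43*, of growing axons, rose from 164, 112 and 94.0 CPM to 302, 276 and 277 CPM (1.20), and *Map2*, a microtubule protein of dendrites, fell from 1170, 1560 and 1340 CPM to 717, 746 and 736 CPM (-0.90). Of the 21 neural progenitor genes, 6 fell (28.6%) and 1 rose. *Pax6* was at 51.3, 75.7 and 83.3 CPM against 27.6, 24.8 and 26.1 CPM (-1.43), and *Sox2* fell by 0.64. *Nr2e1*, a nuclear receptor of forebrain neural stem cells, rose from 5.13, 4.64 and 3.64 CPM to 21.8, 25.1 and 22.4 CPM (2.36). For these 3 genes the groups did not overlap. In the remaining cell type lists, 4 of 7 fibroblast genes rose (57.1%). So did 2 of 7 endothelial and mural genes and 2 of 7 ependymal genes (28.6% each), against 12.6% of all genes. None fell in these lists. Of the 7 fibroblast and the 7 ependymal genes, 2 each averaged under 10 counts in the controls. *Col1a2*, a fibrillar collagen, was at 0.329, 0.361 and 0.534 CPM against 2.03, 2.63 and 2.40 CPM (2.50), a low level in both groups and under 10 counts in the controls. Of 27 mesenchymal and matrix genes, 4 rose (14.8%) and none fell, with a median of 0.05, so the number that rose was near that over all genes. The largest rise was in *Mmp2*, a gelatinase, from 3.81, 3.61 and 5.29 CPM to 43.7, 45.5 and 43.9 CPM (3.37 ± 0.16, adjusted p = 0.000329).

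Cell cycle genes did not pass the test. None of 34 DNA replication and 29 mitosis genes was called by edgeR or by DESeq2, and 0 of them had an unadjusted p under 0.05. Their median log2 fold changes were 0.42 and 0.23. *Mki67*, a proliferation marker, was at 337, 92.2 and 31.1 CPM in the ACVR1 WT samples and at 160, 197 and 200 CPM with H3.1K27M (0.26, adjusted p = 0.833). The result turned on ACVR1 WT replicate 1, without which 52.6% of all genes were called. Without it 33 DNA replication and all 29 mitosis genes were higher with H3.1K27M, where 26.9% of all genes were. *Ccnd2*, a D-type cyclin, had the highest level among the 10 largest differences that were not called, at 677, 142 and 85.8 CPM against 1590, 1640 and 1750 CPM (2.45 ± 0.76, adjusted p = 0.063). *Dusp6* (2.23), a phosphatase of ERK, *Igfbp3* (2.32), *Chrm3* (2.54) and *Aldh1a3* (2.28) had the same form, with replicate 1 the highest control. Without that replicate the log2 fold change was 3.86 for *Ccnd2* (edgeR adjusted p = 5.1e-06) and 3.67 to 4.07 for the other 4, and these 5 passed. In the other direction, *Ttr* (-3.76), *Fa2h* (-2.79), *P4ha3* (-2.56), *Icosl* (-2.42) and *Lims2* (-2.40) did not pass. These 10 passed under DESeq2 (adjusted p 0.00159 to 0.0457) and in 1 edgeR fit over 12 samples (adjusted p 0.00466 to 0.0153), and none passed with a replicate block. Without ACVR1 WT replicate 1, *Fa2h*, *P4ha3*, *Icosl* and *Lims2* passed as well (edgeR adjusted p 1.03e-05 to 0.000976). Without replicate 3 they did not, and their log2 fold changes were -1.99, -1.77, -1.23 and -1.78. *Ttr*, a carrier of thyroid hormone made by choroid plexus, was at 19.6, 28.4 and 49.8 CPM against 0.622, 6.69 and 0.120 CPM, and there the spread lay in the H3.1K27M samples. Without H3.1K27M replicate 2 its log2 fold change was -6.46 (edgeR adjusted p = 0.019).

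Leaving out ACVR1 WT replicate 1 changed the lists unequally, and 26.9% of all genes were then higher and 25.6% lower. Forebrain genes (6 rose, 0 fell) and Hox genes (0 and 9) were already called in full, so their counts could not grow. Interferon-stimulated genes went to 24 risen and 2 fallen, MHC class I genes to 16 and 1, p53 targets to 17 and 3, and the NF-kB list to 12 and 3. Counts also shifted in the BMP list (5 rose, 13 fell), the neural progenitor list (9 and 9), the immediate early and ERK feedback list (13 and 5), PRC2 (4 and 4), PRC1 (3 and 7), and the mesenchymal list (14 and 5).

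Calls of single genes depended on the other replicates as well. Of 94 named genes that were called, 66 lost no call in any case where they could be tested with 1 replicate left out, and 28 lost it in at least 1 case. The number lost was 26, 26 and 28 without H3.1K27M replicate 1, 2 and 3, 17 without ACVR1 WT replicate 2, 4 without replicate 3 and 0 without replicate 1, and in each case the direction stayed the same. Fold changes moved by over 1.5 times in 13 called genes without ACVR1 WT replicate 3, in 7 without replicate 1, and in 5, 0 and 3 without H3.1K27M replicate 1, 2 and 3. Among them, without ACVR1 WT replicate 3, *Pgm5* had a log2 fold change of -5.74, *Gdf10* of -5.60, *Gfap* of -1.69 and *Gpr17* of -3.25, and without replicate 1 *Cdkn1a* had one of 2.25. The 28 include genes low with H3.1K27M (*C1qa*, *Fcrls*, *Cd5l*, *Ctss*, *Lmx1a*, *Pgm5* and *Gdf10*), whose values are a description. *Hpgd*, described below, was lost at an edgeR adjusted p of 0.0621 to 0.0669. *Gfap* (0.0801 to 0.146), *Gpr17* (0.0863 to 0.154) and *Cdkn1a* (0.0522 to 0.0872) were lost in 5 of the 6 cases and passed only without ACVR1 WT replicate 1. *Spry1* (0.112 to 0.136), *Spry4* (0.128 to 0.157), *Egr1* (0.0963 to 0.139), *Fos* (0.0628 to 0.075), *Id2* (0.0945 to 0.119), *Kdm6a* (0.088 to 0.12), *Notch3* (0.0632 to 0.115), *Hey2* (0.061 to 0.0811), *Dll3* (0.0528 to 0.0694), *Ezh1* (0.0623 to 0.0709), *Sesn1* (0.0528 to 0.0619) and *Acsbg1* (0.0521 to 0.0536) were lost in 4 cases. *Id3* (0.0509 to 0.0622), *Dll1* (0.0626 to 0.0852) and *Gap43* (0.0503 to 0.0508) were lost in 3.

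**Figure D4:**
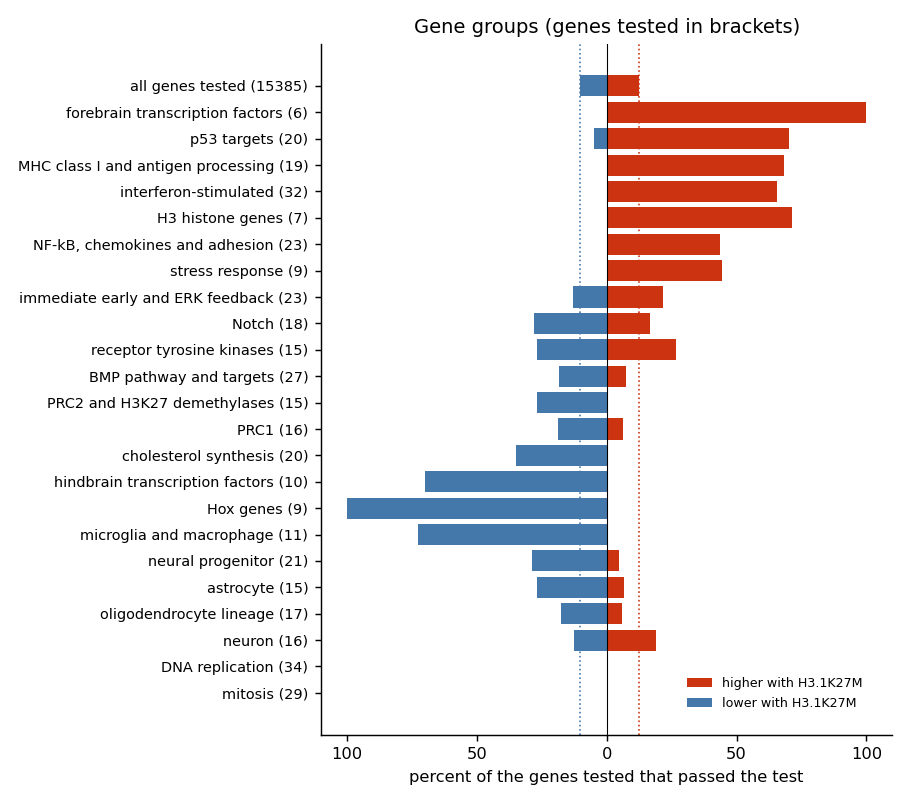
Percent of the tested genes of each list that passed the test, higher with H3.1K27M to the right (red) and lower to the left (blue), with the number tested in brackets; dotted lines give the same over all genes (12.6% and 10.4%). Forebrain, p53, MHC class I and interferon lists lie to the right, hindbrain, Hox and microglia lists to the left, and no DNA replication or mitosis gene passed.

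The genes with the smallest p-values were mostly those with little spread in both groups. *Ndrg4*, of neuronal and cardiac growth, was at 51.9, 47.9 and 49.9 CPM in the ACVR1 WT samples and at 165, 165 and 172 CPM with H3.1K27M (log2 fold change 1.73 ± 0.06, adjusted p = 0.000196). *Gpc5*, a heparan sulphate proteoglycan, was at 1.74, 1.81 and 1.80 CPM against 13.9, 13.9 and 13.4 CPM (2.93). *Lynx1* (2.65), a modulator of nicotinic receptors, *Slco1c1* (4.41), a thyroid hormone transporter, *A2m* (2.00), a protease inhibitor, *Cox6b2* (2.52), a subunit of cytochrome oxidase, and *Cybrd1* (1.63), a ferric reductase, were of the same kind. *Emp1*, a membrane protein of the PMP22 family, had the smallest p among protein-coding genes that fell, at 97.5, 98.3 and 87.6 CPM against 20.6, 21.4 and 16.6 CPM (-2.28 ± 0.12, adjusted p = 0.000438). *Rab8b* (-1.25), of membrane traffic, *Klf13* (-1.19), a transcription factor, *Eya2* (-2.2), a phosphatase and transcriptional coactivator of eye and muscle development, *Edil3* (-2.04), a matrix protein, and *Rcor2* (-1.36), a corepressor, also fell. *Aph1b* (-1.32), a subunit of γ-secretase, *Tns2* (-2.02), *Fmnl3* (-0.97) and *Nol4l* (-0.87) completed the 10. All of these genes were separated completely, and the smallest falls among them were of under 1 on the log2 scale.

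Genes with the largest falls outside microglia included *Pgm5*, at 3.81, 32.0 and 60.8 CPM in the ACVR1 WT samples and at 0.332, 0.525 and 0.160 CPM with H3.1K27M, and *Gdf10*, a ligand of the TGF-β family, at 1.88, 18.0 and 35.1 CPM against 0.0830, 0.287 and 0.240 CPM. *Hpgd*, which degrades prostaglandins, was at 12.2, 80.5 and 107 CPM against 3.40, 2.63 and 2.32 CPM. In all 3 the controls spread over a wide range with replicate 1 lowest, and still no sample overlapped. *Pgm5* and *Gdf10* were low with H3.1K27M. Among the largest rises, *Cyyr1* (a ratio of 103, interval 28.2 to 857) and the olfactory receptor *Olfr618* (59.9, interval 16.3 to 500.0) had 2 counts over the controls.

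Of 497 tested pseudogenes 11.5% were called, against 23.0% of all genes, and called changes of at least 3 on the log2 scale made up 1.21% of pseudogenes and 1.27% of protein-coding genes. Values of 6 processed pseudogenes follow. *Gm13394* (chromosome 2, 28933610 to 28934609) had the largest change among the 6 named here, at 0.235, 0.258 and 0.146 CPM in the ACVR1 WT samples and at 73.2, 62.2 and 67.0 CPM with H3.1K27M (log2 fold change 8.26 ± 0.17), averaging 4.33 counts in the controls. *Gm5514* was at 0.565, 0.464 and 0.291 CPM against 18.0, 17.5 and 16.3 CPM. *Gm6969* went the other way, at 36.0, 33.5 and 26 CPM against 0.913, 0.907 and 1.12 CPM (-5.02). The log2 fold changes of *Gm13453*, *Gm8116* and *Gm3555* were -3.80, 3.77 and 3.68, and all but *Gm6969* were low in 1 group. A processed pseudogene is a near-copy of another gene, so its counts are uncertain, and these 6 were chosen after their values were seen. Of 5 tested sex-linked genes none was called by edgeR or DESeq2 and 1 had an unadjusted p under 0.05, and of 2 tested genes known to vary between mouse strains *Glo1* rose (0.59) and *Nnt* did not pass (-0.04).

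The comparison was repeated in the 6 libraries with *ACVR1* R206H, an activating mutation of the receptor found in these tumours. The 2 comparisons share no sample, but the labels do not say whether they share cultures. Agreement between them therefore cannot tell H3.1K27M from a culture that goes with it. With R206H, 8745 of 15482 genes tested differed by H3.1K27M (56.5%), 4510 higher and 4235 lower. Of the 3471 genes that were called with wild-type *ACVR1* and tested in both, 3446 had the same sign with R206H (99.3%). Called with the same sign in both were 3288 genes, 94.7% of those called with wild-type *ACVR1* and 38.2% of those called with R206H. The replicates with R206H alone were closer to each other than the ACVR1 WT samples, with a median range of 0.18 against 0.408 in log2 CPM. *Six3* was at 0.151, 0.208 and 0 CPM with R206H alone and at 11.1, 8.79 and 11.9 CPM with both mutations, *Icam1* at 4.02, 3.22 and 3.11 CPM against 48.7, 43.1 and 51.1 CPM, and *Shisa3* at 12, 12.1 and 17.5 CPM against 194, 165 and 194 CPM. The 6 tested forebrain genes rose and the 8 tested Hox genes fell with R206H too, where 29.1% of all genes rose and 27.4% fell, and 29 of 32 interferon-stimulated, 19 of 19 MHC class I and 17 of 20 p53 genes rose. *Nkx2-1*, at 0 CPM in every sample with R206H alone, and *Six3* were again low there and had to differ, so their part is a description. All 29 mitosis genes fell with R206H and none was called with wild-type *ACVR1*, but by edgeR 0 of the 29 passed in the interaction described next, at an adjusted or an unadjusted p under 0.05.

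The interaction between H3.1K27M and the *ACVR1* state tested whether the difference itself depended on the receptor. It passed the threshold for 11 of 15445 genes (0.0712%), 9 with a more positive difference with R206H and 2 with a more negative one. *Id3* fell with H3.1K27M in the ACVR1 WT samples and rose with R206H, from 161, 139 and 152 CPM to 336, 296 and 370 CPM (interaction 2.31 ± 0.23 log2, adjusted p = 0.0059). *Id2* rose from 264, 252 and 262 CPM to 547, 498 and 605 CPM with R206H (interaction 1.75 ± 0.18, adjusted p = 0.0059). Reads of *Acvr1* went from 114, 82.3 and 86.1 CPM with R206H alone to 1000, 548 and 1060 CPM with both mutations. *Acvr1* also rose with H3.1K27M in the ACVR1 WT samples, where *Id3* and *Id2* fell, and its own interaction did not pass (1.03 ± 0.45, adjusted p = 0.642). The part of *Acvr1* in the *Id* values was not tested. *Wnt5a*, a Wnt ligand, was at 102, 88.4 and 82.0 CPM in the ACVR1 WT samples and rose to 144, 145 and 141 CPM with H3.1K27M, but went from 107, 97.1 and 91.3 CPM to 82.4, 89.7 and 77.9 CPM with R206H (interaction -0.85 ± 0.13, adjusted p = 0.0485). Among the BMP list only *Id2* and *Id3* passed in the interaction by edgeR.

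**Figure D5:**
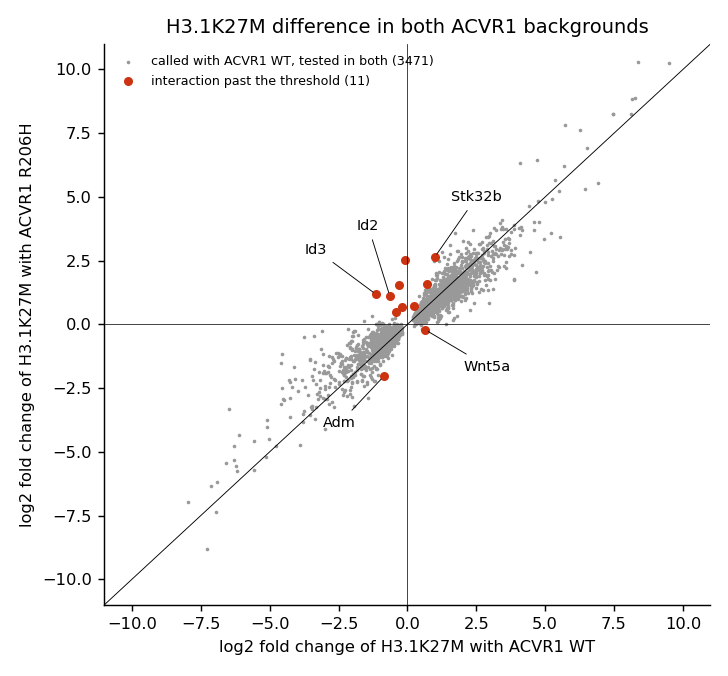
Log2 fold change of H3.1K27M with *ACVR1* R206H (vertical) against that with wild-type *ACVR1* (horizontal) for the 3471 genes called with wild-type *ACVR1* and tested in both; red points are the 11 genes whose interaction passed the threshold, 3 of which (*Lcat*, *Sstr2* and *Hs3st3b1*) are added although they were not called with wild-type *ACVR1*, and the diagonal marks equal change. Nearly all points (99.3%) lie in the quadrants of equal sign, and *Id3* and *Id2* lie in the upper left.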

How the data were processed

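Count files of 12 RNA-seq libraries were used, of which 6 make up the main comparison. Per the labels and the study's methods, the authors aligned paired reads to mm10 (GRCm38) with STAR 2.6.0b-1 and deposited raw counts per gene made with HTSeq without strand, leaving out reads that could belong to more than one gene or place, so that overlapping genes and near-identical copies lose counts. Of 54532 Ensembl IDs, 54495 were named with GENCODE M21. Of 107 named genes, 14 overlapped a tested gene on the other strand, among them *Nlrc5*, *Cdkn1a* and *Ccnd2*. CPM used TMM scaling over 12 samples, and log2 CPM a prior count of 2. Genes with a mean of at least 10 scaled counts in the samples compared were tested with edgeR 4.0.16 (quasi-likelihood, R 4.3.3) on the 6 samples without covariates, at an adjusted p of 0.05. The interaction used all 12 samples. SE values are on the log2 scale. Members and gene lists were chosen with earlier results of these data known. The genes named were the given markers, the vector genes, the 10 of smallest p and the 10 of largest change in each direction among protein-coding genes beyond the control range with at least 1 CPM in every sample of the higher group, the 5 largest uncalled changes in each direction, and list members. Intervals on ratios of counts are exact at 95% and cover counting error only. Motifs were searched in the first RefSeq promoter entry of each symbol. Alternatives were DESeq2 1.42.0, its size factors in edgeR, other filters, 1 fit over 12 samples, a replicate block, a stricter threshold and leaving out each replicate. The procedure was tested on simulated data. Values of some single genes are not reported here, and list counts include them.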

Additional observations from a re-analysis of the deposited data

Results flagged for a closer look

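The difference between samples with and without H3.1K27M depended on the *ACVR1* state in 11 genes by edgeR's interaction test over the 12 samples. The values are interactions in log2, positive where the difference with R206H was more positive. Those of *Id3* (2.31) and *Id2* (1.75), *Id* genes induced by BMP signalling, were joined by *Cxxc5* (0.92), a zinc finger gene, and by *Lcat* (1.86), *Sstr2* (2.61), a somatostatin receptor, and *Hs3st3b1* (0.88). *Lcat*, *Sstr2* and *Hs3st3b1* did not pass the test with wild-type *ACVR1*. *Stk32b* (1.65), *Nptx1* (0.88) and *Parvb* (0.49) rose with H3.1K27M in both *ACVR1* states and by more with R206H. *Adm* (-1.18), adrenomedullin, fell in both and by more with R206H. *Wnt5a* (-0.85) rose with wild-type *ACVR1* and fell with R206H. Only 3 of these interactions (*Id3*, *Id2* and *Stk32b*) had an adjusted p of 0.0059, and that of the others lay between 0.0208 and 0.0485. The count rested on which libraries were used: it was 4112 without ACVR1 WT replicate 1.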

How the results depend on the processing

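The number of genes called moved by over 1.5 times under several alternatives. It was 2023 with a replicate block, 6335 with all 12 samples in 1 fit and 1100 at an adjusted p under 0.01, against 3533. Leaving out a replicate gave 1037 to 8115, with 8115 without ACVR1 WT replicate 1, 1445 without replicate 2, and 1037 to 1189 without 1 H3.1K27M replicate. Calls beyond the control range were 1957 with the block, 1100 at 0.01 and 1037 to 7938 without 1 replicate, against 3335. Genes called with the same sign with R206H were 1944, 1071 and 1013 to 5376 in the same order, against 3288. The 8745 calls with R206H stayed within 1.5 times (7589 to 8350 without 1 replicate). Interactions were 93 with DESeq2, 18 with no filter, 2 with the block and 3 to 4112 without 1 replicate, against 11. Same-numbered samples of the 2 groups did not deviate together (correlations 0.014 to 0.034), so the block stands only as an alternative. With it, *Id2*, *Notch3*, *Kdm6a*, *Spry4*, *Gfap* and *Gpr17* no longer passed. Leaving out 1 replicate ended the call of 28 of 94 named genes called, 26 to 28 of them without 1 H3.1K27M replicate and 17 without ACVR1 WT replicate 2. The 10 largest changes not called passed under DESeq2. Of 107 named genes, 2 changed sign, neither of them called: *Ezh2* (0.23 without ACVR1 WT replicate 1) and *Id1* (0.13 without ACVR1 WT replicate 3). Counts of list members without ACVR1 WT replicate 1 were added after seeing the data. The cause of these changes was not tested, and with 2 replicates left in a group the spread rests on fewer samples. Genes near 10 counts are limited by depth.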

Other observations

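Some lists belong to no result above. Of 20 tested cholesterol synthesis genes, 7 fell, where 10.4% of all genes did, and none rose, among them *Fdft1* (-1.03), squalene synthase, and *Fdps* (-0.96). The list's sum was 2280, 3380 and 3590 CPM in ACVR1 WT replicates 1, 2 and 3 and 2020 to 2120 CPM with H3.1K27M, and without ACVR1 WT replicate 1 the number that fell was 18, where 25.6% of all genes did, and without replicate 3 it was 3. Of 19 tested hypoxia and glycolysis genes, the prolyl hydroxylase *Egln3* rose (1.46) and *Ndrg1* (-2.46), *Mxi1* (-1.0) and *Adm* (-0.86) fell, numbers near those over all genes (12.6% rose and 10.4% fell). Of 4 tested midbrain and isthmus transcription factors, *Lmx1a*, which averaged 5 counts with H3.1K27M and passed the filter only through the controls, was lower and none rose. Calls were spread over all autosomes, from 19.9% of genes tested on chromosome 8 to 25.4% on chromosome 6. On the X chromosome 24.2% were called, 51 genes higher and 77 lower. The median log2 fold change there was -0.115 (-0.086 with R206H), against -0.057 to 0.009 on the autosomes. None of 8 genes on the Y chromosome was called by edgeR or DESeq2, with 1 at an unadjusted p under 0.05.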
